A study of Mus musculus with 36 samples.

Results

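The step from day 3 to day 4 was the first daily step with many genes called changed in a course of differentiation of mouse embryonic stem cells (mESCs) of the Xmas lines. Its members are the 4 libraries of day 4 and the 4 libraries of day 3, 8 of the 36 libraries of the series, matched by line (X14 or X18) and by the word double or single in the library name. All libraries came from female C57/Bl6 Xmas lines. As derived, these lines carry GFP at the Hprt gene of an X chromosome and mCherry at that of its homologue. The cells were expanded without feeders in medium with 2i and LIF. They were then moved in equal daily portions to DME HiHi medium, which has 15% serum and no LIF. The paper states that cells were replated on gelatin-coated plates on the day they reached full DME HiHi medium. They were not passaged after that, and no label gives the day of replating. The days thus differ in time, in medium and possibly in plating together, and the contributions of these cannot be told apart. Replicate 1 was X14 double, replicate 2 X14 single, replicate 3 X18 double and replicate 4 X18 single, and values of the 4 cultures are given in this order throughout. No label explains the words double and single or states whether cultures of a line began separately. The paper reports that cells with a single reporter, likely XO, built up in culture and held only the matching allele. Whether the word single marks such cells was not tested, so the number of X chromosomes in the cultures is not known here. Constant differences between the 4 cultures, which come from 2 lines, are taken out by the fit. The p-values measure the scatter of the cultures around a shared daily course over all 36 libraries. Repeated days of a culture enter as separate libraries.

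mESCs in 2i and LIF are held in the naive state, the counterpart of the early epiblast. The 2 inhibitors block MEK, which activates ERK, and GSK3, which restrains Wnt signalling, while LIF acts through its receptor and STAT3. When these are withdrawn, the network of naive transcription factors is switched off, FGF and ERK signalling acts, and cells pass through a formative state, the counterpart of the epiblast around implantation, before they become primed for germ layers. Fgf5, Otx2, Pou3f1 and the de novo DNA methyltransferases mark this transition.

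Levels are in RPM, a gene's reads scaled by the total reads of its library, which is not per length and is compared between days for one gene only. The 8 libraries held between 1274068 and 1863528 reads in genes, so 3 reads, the floor used here, were worth 1.41 to 2.02 RPM, and floors and intervals cover counting error only. Differences are fitted log2 values, day 4 minus day 3, with the standard error (SE) of a limma model over all 36 libraries that keeps the culture as a block, and adjusted p-values are Benjamini-Hochberg values over 14612 genes. A gene was called changed when its adjusted p was under 0.05 and its log2 difference at least 1 either way.

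Marker levels describe the libraries of each day, since the library names give day, line and the word double or single but no cell state. The naive and the formative or primed markers are also members of lists reported below, so their sums are not a separate check. The summed level of 6 naive markers was 1180 to 2320 RPM on day 3 and 118 to 489 RPM on day 4, and that of 4 formative or primed markers was 528 to 1270 RPM and then 1650 to 3400 RPM, with no overlap of the days in either sum. Of markers of other cells, Cdx2 and Elf5 (trophoblast), T, Mesp1 and Kdr (streak and mesoderm), Neurog2 (neural), Col3a1, Pdgfrb, Postn and Lox (fibroblast) and Ttr (endoderm) had no read in the 8 libraries. Gata4, Gata6, Sox17, Pdgfra and Afp had at most 3 reads in any of them. Other markers of these lists had reads, such as Thy1 (fibroblast) with means of 13.8 and 21.9 RPM on days 3 and 4 and Eomes (streak) with 6.87 and 9.35 RPM. The summed level of 8 fibroblast markers was 11.2 to 20.7 RPM and then 12.9 to 32.7 RPM, that of 5 streak markers 3.3 to 12.7 RPM and then 1.94 to 17.5 RPM, and that of 4 germ cell markers 96.2 to 184 RPM and then 66.0 to 115 RPM. Hprt was at 137, 58.9, 123 and 58.5 RPM on day 3 and at 115, 55.6, 120 and 58.3 RPM on day 4, higher in both double cultures than in both single cultures on these days. On day 0, which enters the fit but not the step, the order of the X14 libraries by Hprt went the other way. In bulk RNA, fewer cells that express a gene and less of its RNA per cell cannot be told apart, which holds for every change below.

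In this step 872 of 14612 genes were called (5.97%), 575 higher on day 4 (3.94%) and 297 lower (2.03%), with limma and the Benjamini-Hochberg adjustment. The 3 steps before it had 12, 28 and 51 called genes, and the 4 that followed had 1743, 1631, 186 and 102 in turn. At an unadjusted p under 0.05 (limma) the 3 steps before had 938, 1572 and 1011 genes and this step 2543. The mean distance over log2 values between the 2 days of a culture was 122, 98.8 and 96.9 in those steps and 120 in this one. Libraries of day 0 were 137 apart on average, and those of day 3 were 100 apart. The median log2 difference of the step from day 3 to day 4 over all genes tested was 0.05. The 4 libraries of each day did not overlap for 467 of the 575 higher genes and 244 of the 297 lower ones, against 2309 of all 14612 (15.8%), and the sign was the same in all 4 cultures for 556 and 286 of them, against 5569 of all 14612. The calls rest on these same values, so both counts are descriptions. The count ranged from 480 to 772 when 1 culture was left out on every day, with 480 genes without X18 double and 541 without X18 single.

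**Figure D1:**
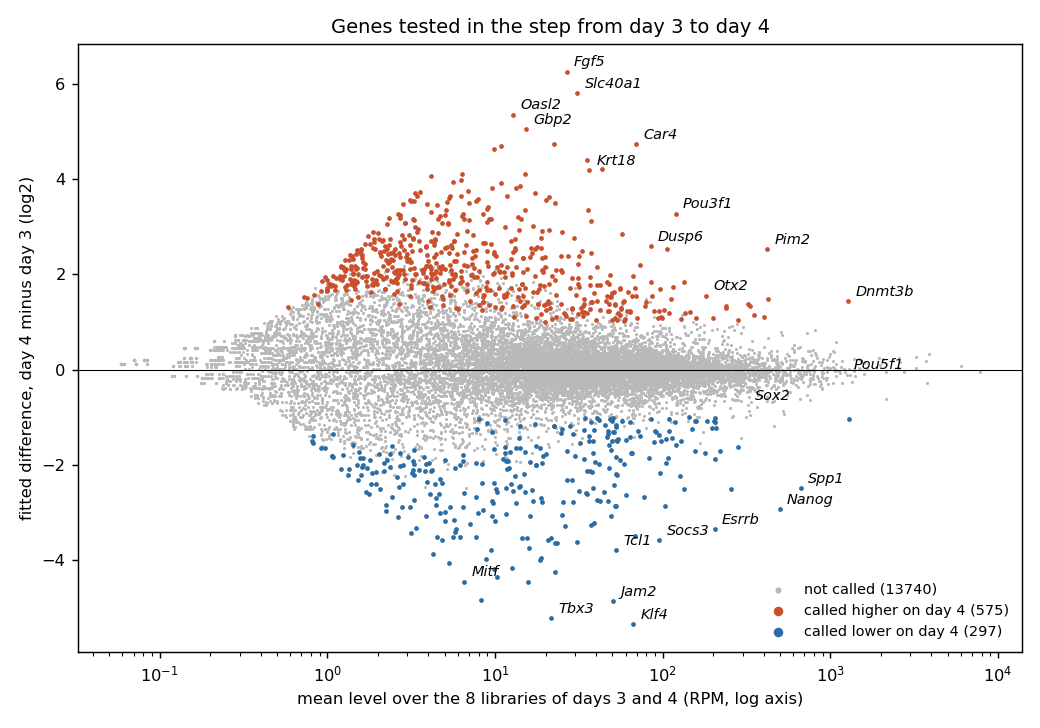
Fitted log2 difference (day 4 minus day 3, vertical axis) of each of the 14612 genes tested against its mean level over the 8 libraries (RPM, log axis), with the 575 genes called higher in red, the 297 called lower in blue and the others in grey. Fgf5 at 6.26 is the highest point and Klf4 at -5.35 the lowest, while Pou5f1 at -0.10 lies near 0.

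Naive transcription factors fell as a group. Of 16 such genes tested, 11 were called lower and none higher, with a median log2 difference of -2.89 against 0.05 over all genes. The share called was 68.8%, beside 5.97% of all genes. Klf4, a Kruppel-like factor of the naive network, was at 131, 116, 153 and 118 RPM on day 3 and at 6.05, 1.29, 5.63 and 2.24 RPM on day 4. Every day 3 library lay far above every day 4 library, and the log2 difference was -5.35 ± 0.53 (SE, adjusted p = 3.36e-08). Tbx3, a T-box factor that sustains self-renewal, was at 49.3, 21.2, 66.3 and 30.7 RPM and then at 2.69, 0.647, 0.563 and 1.12 RPM, a log2 difference of -5.22 ± 0.56 (adjusted p = 1.06e-07). Double cultures held more Tbx3 than single ones on day 3, and the days did not overlap.

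Nanog, the homeobox factor at the centre of the naive network, was at 1260, 408, 1340 and 469 RPM on day 3 and at 196, 36.9, 230 and 57.7 RPM on day 4. The double cultures were above the single ones on both days, and even the highest day 4 library stayed below the lowest of day 3. Its log2 difference was -2.93 ± 0.45 (adjusted p = 3.68e-05). Esrrb, an orphan nuclear receptor that acts downstream of GSK3 inhibition, was near-even across the cultures on day 3 at 367, 370, 396 and 342 RPM, and fell to 52.4, 22.6, 59.1 and 24.1 RPM (-3.35 ± 0.39, adjusted p = 4.4e-07). Nr5a2 (-3.54), Nr0b1 (-3.08), Tfcp2l1 (-2.86), Klf5 (-2.64) and Fbxo15 (-2.50) were also called lower, as were Tcl1 (-3.78) and Prdm14 (-3.52). Of the 11, Prdm14 and Tcl1 lost the call in at least 1 alternative (the 8 libraries alone with no block, adjusted p = 0.0698 and 0.0522), and the other 9 kept it in every alternative run. Reads of Nanog and Pou5f1 can be shared with their pseudogenes.

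Not all naive genes passed. Klf2 (-1.24, adjusted p = 0.0527), Gbx2 (-1.09, 0.168), Dppa3 (-0.76, 0.46) and Fgf4 (-0.44, 0.401) did not. Nor did Zfp42, also known as Rex1, with an adjusted p of 0.0341 at a log2 difference of -0.99, just short of the minimum size. The general pluripotency factors moved less. None of 6 was called, their median log2 difference was -0.06, and Pou5f1, which encodes OCT4, was at 1290, 1200, 1360 and 1320 RPM on day 3 and 1180, 1040, 1300 and 1300 RPM on day 4, with the days overlapping. Sox2 had a log2 difference of -0.74 ± 0.25 (adjusted p = 0.0731).

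**Figure D2:**
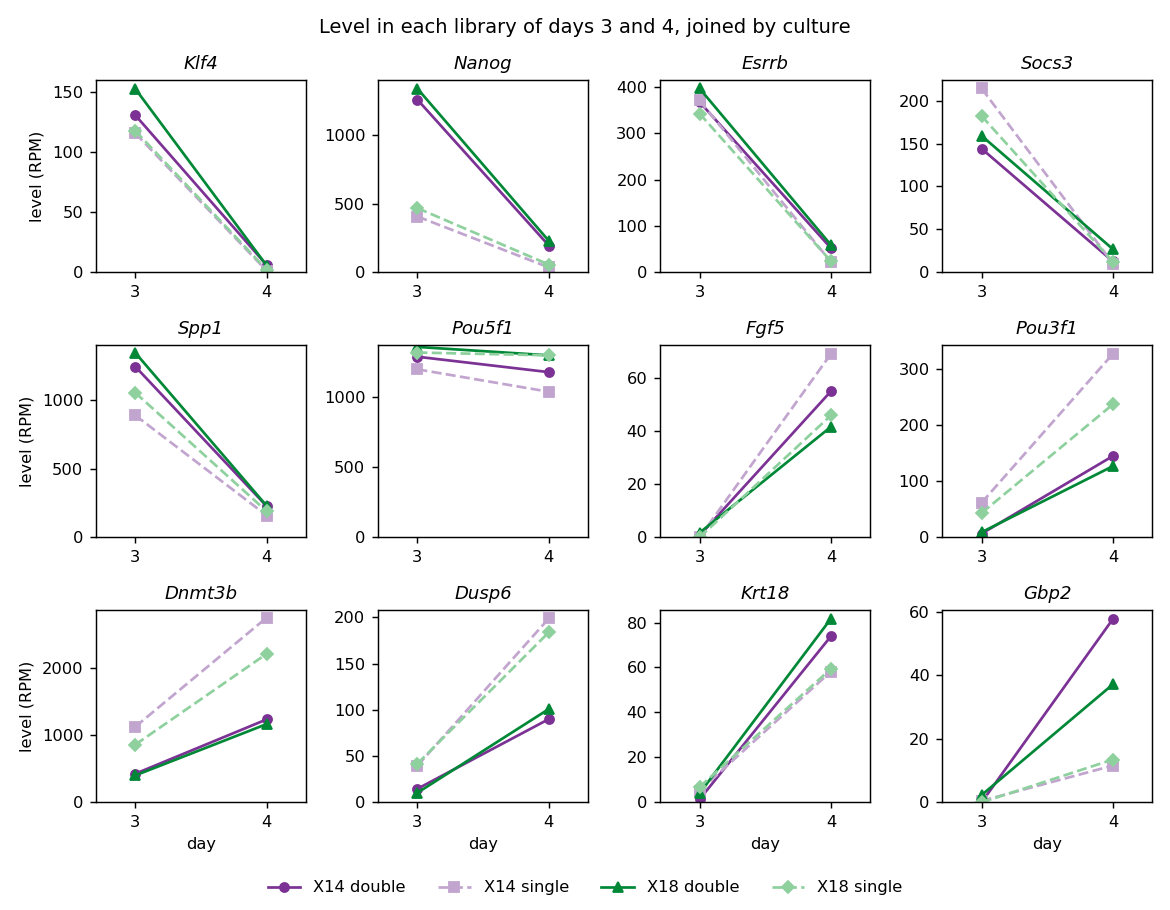
Level (RPM, each panel with its own axis from 0) of 12 genes in each of the 8 libraries, with the 2 days of a culture joined by a line (purple X14, green X18, full lines double, broken lines single). Klf4, Nanog, Esrrb, Socs3 and Spp1 go down in all 4 cultures, Pou5f1 stays between 1040 and 1360 RPM, and Fgf5, Pou3f1, Dnmt3b, Dusp6, Krt18 and Gbp2 go up in all 4.

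The receptors and targets of LIF fell as well. Of 11 genes of the LIF and STAT3 pathway, 7 were lower and none higher, with a median of -1.49. The share called was 63.6%, beside 5.97% of all genes. Socs3, a direct STAT3 target that feeds back on the receptor, was at 144, 214, 159 and 182 RPM on day 3 and 12.8, 10.4, 27.0 and 12.3 RPM on day 4 (-3.58 ± 0.33, adjusted p = 5.45e-09). On day 4 X18 double was the highest of the cultures and still far below all of day 3. Bcl3, a nuclear IkB family protein and STAT3 target, went from 28.9 ± 8.45 RPM (SD, n = 4) to 3.43 ± 1.14 RPM. Both chains of the LIF receptor were lower, Lifr from 57.4 ± 9.87 to 13.5 ± 4.26 RPM and Il6st, which encodes gp130, from 72.3 ± 18.4 to 29.3 ± 8.51 RPM.

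Stat3 itself fell by 1.49 on the log2 scale, from 78.7 ± 18.7 to 27.7 ± 3.45 RPM. Its call and that of Lifr were lost in some alternatives (Stat3 without X14 single, adjusted p = 0.197, without X18 single, 0.128, and with reads thinned, 0.0745; Lifr without X18 double, 0.0565), and the other 5 calls, with Klf4 and Tfcp2l1 among them, held in every one. Jak1 (-0.16, adjusted p = 0.917), Pim3 (-0.50, 0.105), Junb (-0.45, 0.712) and Pim1 (0.90, 0.0274, below the minimum size) were not called.

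Surface and matrix genes of naive mESCs went the same way in part. Of 12 surface genes 7 fell and 2 rose, 75% beside the 5.97% of all genes. Jam2, a junctional adhesion molecule, was at 121, 61.3, 129 and 77.1 RPM on day 3 and 4.71, 1.29, 10.1 and 1.68 RPM on day 4 (-4.86 ± 0.50, adjusted p = 4.09e-08). Spp1, the secreted glycoprotein osteopontin, went from 1240, 886, 1340 and 1050 RPM to 226, 159, 228 and 189 RPM (-2.49 ± 0.21, adjusted p = 1.25e-09), so the 4 cultures were close to each other on both days. Kit, the receptor of stem cell factor, went from 61.8 ± 9.88 to 14.1 ± 2.67 RPM and Icam1, an adhesion molecule of the immunoglobulin family, from 102 ± 32 to 29.4 ± 6.30 RPM.

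Alpl, the alkaline phosphatase used to stain mESC colonies, was called at -1.28, but not without X18 single (-1.14, adjusted p = 0.112), and Cd9, a tetraspanin, was called at -1.08, but not without X14 single (-0.95, 0.0711) or with reads thinned (-0.99, 0.0114). The 2 surface genes that rose were Podxl, a sialomucin of polarised epiblast, from 135 ± 7.92 to 343 ± 50.9 RPM, and Bst2, an interferon-induced membrane protein, from 39.1 ± 14 to 88.5 ± 15.2 RPM. Podxl had an adjusted p of 0.0576 without X18 double. In the list of matrix and basement membrane genes 3 of 13 fell and none rose, 23.1% beside the 5.97% of all genes. Nid1, which links laminin to collagen IV, was at 133, 128, 153 and 121 RPM and then at 20.2, 22, 29.8 and 14 RPM (-2.68 ± 0.50, adjusted p = 0.000409). Col4a1 (-2.12) and Lama1 (-2.95) lost the call without X18 double (adjusted p = 0.136 and 0.147), Lama1 also with reads thinned (0.0769) and in the 8 libraries alone with no block (0.052), and Fn1, the fibronectin gene, had a log2 difference of -1.18 (adjusted p = 0.12).

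Other large falls lay outside these groups. Mras, a RAS-related GTPase, was at 17.3, 8.96, 22.5 and 17.1 RPM on day 3 and had no read in any day 4 library, so it was at least 8.98-fold lower against a floor of 3 reads per library. Mitf, a transcription factor of melanocytes and a regulator of lysosomal genes, had 15.3, 12.3, 19 and 5.85 RPM and then no read, at least 7.16-fold lower. Tead4, a partner of the Hippo effectors YAP and TAZ, went from 17.3 ± 1.38 to 1.65 ± 1.33 RPM (-3.78 ± 0.46, adjusted p = 8.95e-07). Pramel7, which is expressed in the inner cell mass, was at 39.3, 3.30, 55.9 and 1.46 RPM on day 3, far higher in the double cultures, and had 1 read in all 4 libraries of day 4 (148-fold lower, 95% counting interval 26.2 to 5870). Ngfr, Ntn1, Irak3, Myo1f and Serpinb6c completed the 15 largest falls with Notum and Sox7, which are described with their pathways.

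Formative and primed factors rose together on day 4. Of 14 tested, 9 were called higher and none lower, with a median of 1.51. The share called was 64.3%, beside 5.97% of all genes. Fgf5, the FGF ligand that marks the early post-implantation epiblast, had the largest rise of all named genes. It was at 0.667, 0, 1.73 and 0 RPM on day 3, 4 reads in all, and at 55.1, 69.2, 41.7 and 46.0 RPM on day 4 (6.26 ± 0.46, adjusted p = 1.11e-10). All 4 cultures were near 0 before and within a range of 41.7 to 69.2 RPM after the step.

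Pou3f1, the POU factor OCT6, was at 6.67, 61.8, 9.22 and 43.4 RPM on day 3 and at 145, 327, 127 and 237 RPM on day 4 (3.27 ± 0.42, adjusted p = 2.91e-06). Single cultures lay above double ones on both days. Otx2, the homeobox factor that directs the formative state, went from 101, 80.2, 114 and 76.6 RPM to 273, 243, 307 and 257 RPM without overlap. Its log2 difference was 1.55 ± 0.45 (adjusted p = 0.029), which was lost without X14 single, X18 double or X18 single (adjusted p = 0.105, 0.169 and 0.137) at log2 differences of 1.49 to 1.6. Sall2, a zinc finger factor, went from 7.97 ± 4.97 to 66.6 ± 39.4 RPM (3.12 ± 0.43, adjusted p = 8.12e-06) and Grhl2, a Grainyhead factor that opens epithelial enhancers, from 24.3 ± 3.66 to 67.2 ± 16.5 RPM (1.45 ± 0.33, adjusted p = 0.00455).

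Cldn6, a claudin of embryonic epithelia (2.20, and 2.03 without X18 double, adjusted p = 0.0701), and Sox4 (1.69, adjusted p = 0.0486, lost in 9 of 16 alternatives) were also called. The 5 not called were Sox3 (1.72, adjusted p = 0.109), Foxd3 (0.49, 0.789), Zic5 (-0.13, 0.941), Lef1 (-0.37, 0.84) and Zic2 (-0.74, 0.366).

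De novo DNA methyltransferases rose, while one of the TET dioxygenases, which oxidise methylated cytosine, fell. Dnmt3b was at 428, 1130, 403 and 863 RPM on day 3 and at 1240, 2760, 1170 and 2220 RPM on day 4 (1.43 ± 0.33, adjusted p = 0.00447). Dnmt3a went from 137, 370, 127 and 306 RPM to 421, 842, 420 and 790 RPM (1.47 ± 0.35, adjusted p = 0.00635). For both, the single cultures lay above the double ones on each day, and in each culture the level went up. Without the culture block Dnmt3b had an adjusted p of 0.0624, without X18 single 0.0502, and Dnmt3a without X18 double 0.0742. In the 8 libraries alone with no block neither was called (adjusted p = 0.057 and 0.0531). Both genes overlap annotated transcripts on the other strand, whose reads cannot be told apart without strand. Tet2 went from 67.3, 102, 71.4 and 103 RPM to 14.1, 16.8, 22.5 and 21.9 RPM (-2.19 ± 0.48, adjusted p = 0.00298). The others of the 9 genes did not pass, among them Tet1 (-0.99, adjusted p = 0.257), Dnmt1 (-0.40, 0.74), Uhrf1 (-0.41, 0.503) and Dnmt3l (-0.17, 0.939).

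In the FGF family 2 ligands rose and 1 receptor fell, of 8 genes tested, 37.5% beside the 5.97% of all genes. Fgf15 was at 1.33, 8.02, 6.34 and 4.88 RPM on day 3 and at 32.9, 44.6, 23.1 and 30.8 RPM on day 4 (2.91 ± 0.54, adjusted p = 0.000444), with a gap between the days. Fgfr3 went from 8.50 ± 3.20 to 0.885 ± 0.596 RPM (-3.02 ± 0.65, adjusted p = 0.00235), while Fgfr1, the main FGF receptor of the epiblast, was at 93.2 ± 5.76 and 106 ± 25.1 RPM (0.15, adjusted p = 0.926). Of 18 genes that respond to ERK, 3 rose and none fell, a share of 16.7% beside the 5.97% of all genes. Dusp6, the phosphatase that removes phosphate from ERK, was at 14.7, 39.6, 10.4 and 41.9 RPM and then at 90.1, 199, 101 and 184 RPM (2.59 ± 0.30, adjusted p = 4.97e-07). Dusp4, another ERK phosphatase (2.75, lost only in the 8 libraries alone with no block, adjusted p = 0.0517), and the immediate early factor Egr1 rose too. Egr1 was at 0.667, 0, 0 and 1.46 RPM on day 3 and at 6.05, 21.4, 4.51 and 8.97 RPM on day 4 (3.64 ± 0.62, adjusted p = 0.000155). Etv4 (-0.15, 0.941), Etv5 (0.10, 0.941), Spry2 (-0.65, 0.267) and Spry4 (0.72, 0.669) were not called.

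Of the Wnt, Nodal and BMP lists 13.3%, 14.3% and 16.7% of the genes tested were called, 2 genes in each, beside the 5.97% of all genes. Of 15 Wnt targets Tcf7, a TCF factor, rose from 45.2 ± 11 to 94.8 ± 10.2 RPM (1.09, lost without X14 single, X18 double or X18 single, adjusted p = 0.0611, 0.116 and 0.161) and Notum, a secreted enzyme that inactivates Wnt ligands, fell. Notum was at 32, 23.6, 32.8 and 30.2 RPM and then at 2.69, 0.647, 1.69 and 1.12 RPM (-4.45 ± 0.48, adjusted p = 1.1e-07). Among 14 Nodal pathway genes Pcsk6, a convertase that processes Nodal, fell (-1.99), and it lost the call with reads thinned (adjusted p = 0.0577) and without X18 double or X18 single (0.056 and 0.0597). Nodal was at 80.3 ± 20.7 and 81.0 ± 37.2 RPM. Of 12 BMP pathway genes Id1 and Msx1 rose. Id1, an inhibitor of bHLH factors and a direct BMP target, was at 33.3, 28.8, 31.7 and 21.5 RPM and then at 127, 58.2, 138 and 58.3 RPM, more in the double cultures (1.63 ± 0.30, adjusted p = 0.00034). Msx1 had 1 read on day 3 and 30 on day 4 (33.7-fold, 95% counting interval 5.6 to 1380), and with reads thinned its adjusted p was 0.0734.

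**Figure D3:**
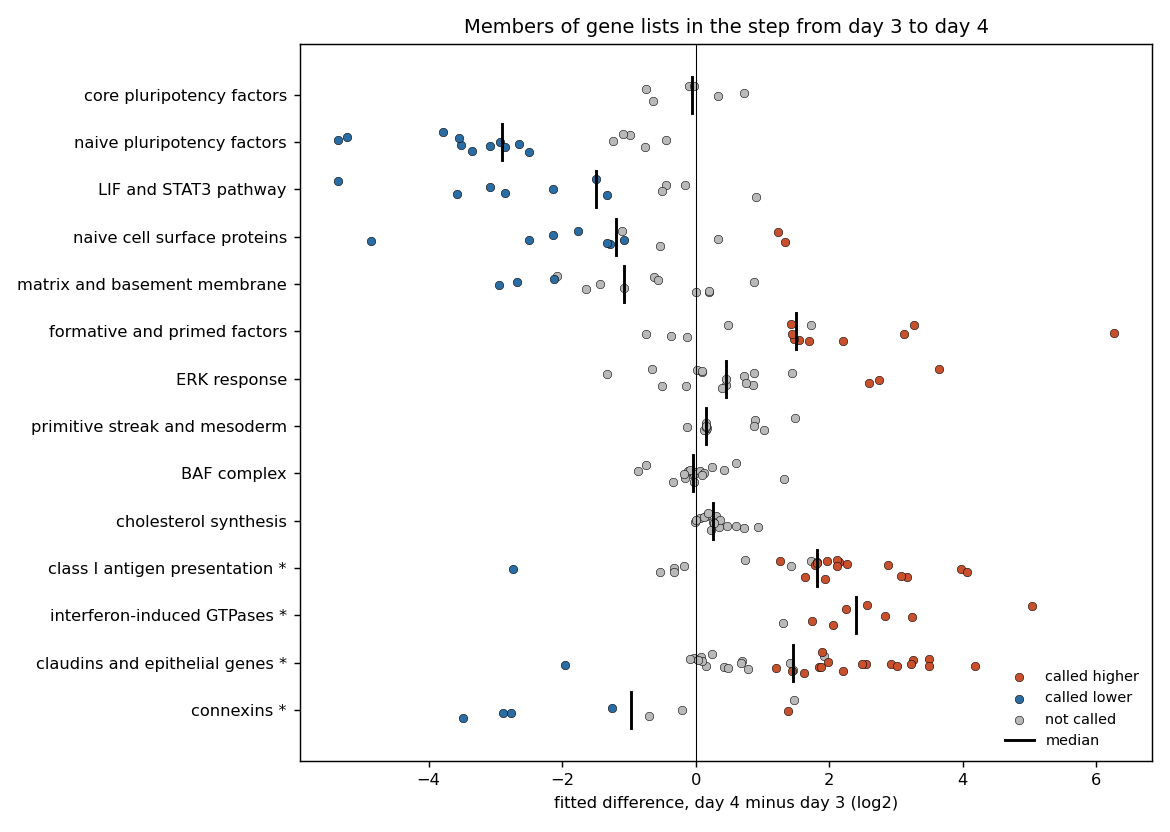
Fitted log2 difference (day 4 minus day 3) of each tested member of 14 gene lists, one row a list, in red if called higher, blue if called lower and grey if not called, with the list median as a black bar. An asterisk marks families written down after the values were seen. Naive factors have the lowest median, -2.89, formative and primed factors a median of 1.51 and the BAF complex -0.05.

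Markers of the germ layers gave no common direction, and of 11 genes of trophoblast and surface ectoderm Krt8 and Krt18 rose and Tfap2c fell. None of 11 streak and mesoderm genes was called. Shares called were 22.2% of endoderm, 28.6% of neural and 27.3% of trophoblast and surface ectoderm genes, beside 5.97% of all genes. Of 9 endoderm genes tested Sox7 fell, with 74 reads on day 3 and 2 on day 4 (32.9-fold lower, 95% counting interval 8.8 to 277), and Dab2 rose from 1 read to 19 (21.3-fold, 3.39 to 887). The call of Dab2 was lost in 5 of 14 alternatives, without X14 single, X18 double or X18 single (adjusted p = 0.161, 0.0906 and 0.161), with reads thinned (0.184) and in the 8 libraries alone with no block (0.0556). The 8 endoderm markers summed to 6.83 to 15.3 RPM on day 3 and 1.34 to 5.82 RPM on day 4, and the part of such cells in these changes was not tested. Of 7 neural genes 2 fell, Ncam1, a neural cell adhesion molecule, from 26.3 ± 11.1 to 2.64 ± 1.51 RPM (-3.54 ± 0.51, adjusted p = 1.45e-05) and Tubb3, a tubulin, from 131 ± 44.1 to 45.2 ± 11.6 RPM (-1.51, lost without X14 double, X18 double or X18 single, adjusted p = 0.0817, 0.142 and 0.0597). Sums over the 5 neural markers were 106 to 195 RPM and then 39.4 to 66.1 RPM.

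Epithelial genes rose in number. This family of 48 genes was written down after the values were seen, so its counts describe it only. Of 33 tested, 17 were called higher and 1 lower, with a median of 1.46. Among all genes tested 3.94% were called higher and 2.03% lower. Krt18, a keratin of simple epithelia, was at 1.33, 5.19, 4.03 and 6.83 RPM on day 3 and at 73.9, 58.2, 81.7 and 59.4 RPM on day 4 (4.19 ± 0.44, adjusted p = 7.21e-08). Its partner Krt8 went from 0, 2.36, 0 and 2.44 RPM to 14.8, 10.4, 14.6 and 6.17 RPM (3.23 ± 0.58, adjusted p = 0.000301). In both genes the single cultures had more before the step and less after it.

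Tight junction genes were among them. Cldn7 went from 6.03 ± 3.88 to 31.5 ± 11.1 RPM (2.55 ± 0.50, adjusted p = 0.000894), Marveld3, a tight junction membrane protein, from 0.886 ± 0.694 to 9.17 ± 2.90 RPM, and F11r, which encodes the adhesion molecule JAM-A, from 38.5 ± 5.88 to 88.7 ± 9.76 RPM. Rab25, a GTPase of epithelial recycling endosomes, rose from 2.52 ± 0.617 to 15.4 ± 7.59 RPM and Prss8, a membrane-bound serine protease, from 5.19 ± 2.25 to 36.7 ± 1.76 RPM. Epcam had an adjusted p of 0.000103 at a log2 difference of 0.96, just short of the minimum size, and was not called. Cdh1, E-cadherin, was at 554 ± 115 and 764 ± 120 RPM (0.47, adjusted p = 0.452). Grhl3 fell (-1.96, adjusted p = 0.0193). Of the 18 called, 10 kept the call in every alternative run that tested them. Cldn3, Cldn6, Cldn9, Marveld2, Lsr, Ovol2, Ap1m2 and Grhl3 did not. Among the 10, Krt8, Lad1, Marveld3 and Rab25 were tested in 15 of 16 alternatives. Of 14 genes of cadherins, junctions and the epithelial-mesenchymal transition, Vim, the intermediate filament gene of mesenchymal cells, fell from 322 ± 38 to 90.0 ± 26.0 RPM (-1.88 ± 0.29, adjusted p = 5.01e-05), as did Zeb1, a repressor of epithelial genes (-1.65, lost without the block, adjusted p = 0.101, and without X14 double, X18 double or X18 single, 0.0664, 0.238 and 0.154). The 6 trophoblast markers, Krt8 and Krt18 not among them, summed to 13.8 to 23.6 RPM on day 3 and 18.5 to 46.2 RPM on day 4.

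Connexins, the subunits of gap junctions, went in opposite directions in a family also written down after the values were seen. Gja1, connexin 43, rose from 141, 233, 123 and 237 RPM to 440, 446, 467 and 485 RPM, so that the cultures differed on day 3 and were near-even on day 4 (1.38 ± 0.23, adjusted p = 0.000105). Gjb5 fell from 29.4 ± 15.2 to 4.35 ± 2.67 RPM (-2.76), and Gjc1 was lower too (-1.25, adjusted p = 0.0282). The call of Gjc1 was lost without X14 single, X18 double or X18 single (adjusted p = 0.164, 0.147 and 0.0974) and with reads thinned (0.295).

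Class I antigen presentation and interferon-induced genes made up another group of rises. They too were written down after the values were seen. Class I molecules carry peptides to the cell surface that the immunoproteasome cuts and the TAP transporter pumps into the endoplasmic reticulum. Of 24 such genes tested 16 rose and 1, H2-M5, fell (median 1.81). Of 8 interferon-induced GTPases 7 rose (median 2.40), and of 36 other interferon-stimulated genes 11 rose and 4 fell (median 0.66). Among all genes tested 3.94% were called higher and 2.03% lower. Gbp2, a guanylate-binding protein, was at 0, 0.471, 2.30 and 0 RPM on day 3 and at 57.8, 11.6, 37.2 and 13.5 RPM on day 4 (5.04 ± 0.51, adjusted p = 4.09e-08). Oasl2, an oligoadenylate synthetase-like protein, had 2 reads on day 3 and then 36.3, 16.8, 41.1 and 7.85 RPM (93.8-fold, 95% counting interval 25.6 to 781). Both were highest in the 2 double cultures on day 4 and the days did not overlap.

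Irf1, the transcription factor that activates the genes of antigen presentation, went from 46.0, 37.7, 41.5 and 42.9 RPM to 225, 91.9, 214 and 75.1 RPM (1.69 ± 0.36, adjusted p = 0.0022, lost without X18 double, 0.0588), level across the cultures before the step and higher in the double ones after it. H2-K1, a classical class I heavy chain, went from 15.3, 24.5, 11.5 and 26.3 RPM to 49.7, 86.1, 53.5 and 68.9 RPM (1.78 ± 0.26, adjusted p = 1.58e-05). Among the subunits of the immunoproteasome, Psmb8 had no read on day 3 and 9.41, 6.47, 10.1 and 7.29 RPM on day 4, at least 5.04-fold higher, and Psmb9 had 3 reads and then 36 (13.5-fold, 95% counting interval 4.26 to 68.4). Tap2, a chain of the transporter, went from 0, 0.471, 0.576 and 1.46 RPM to 16.1, 11.6, 14.1 and 5.61 RPM (3.98 ± 0.46, adjusted p = 4.42e-07).

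The group was not uniform. B2m, the light chain that all class I molecules share, was at 6.36 ± 2.23 and 10.9 ± 5.13 RPM (0.74, adjusted p = 0.36), and H2-D1 at 11.8 ± 2.02 and 31.4 ± 1.30 RPM (1.43, adjusted p = 0.0907). Irf9 (-1.04, adjusted p = 0.0982), which carries interferon signals to the nucleus, was not called, and Isg15 and Ifit1, strongly induced by type I interferon in most cells, had no read in the 8 libraries. Zc3hav1, an antiviral zinc finger protein, fell from 98.0, 44.8, 114 and 39.5 RPM to 16.8, 3.88, 30.4 and 7.85 RPM (-2.58 ± 0.46, adjusted p = 0.000256), and Plscr1, Samd9l and Ube2l6 also fell. Of the 17 class I calls 6 held in every alternative that tested the gene. These were the rises of H2-K1, H2-Q4, Tap2, Psmb8 and Psmb9 and the fall of H2-M5 (-2.74). Of the 7 GTPases 4 held (Gbp2, Gbp3, Irgm2 and Igtp), and of the 15 others 7. Some of these, with Tap2, Psmb8, Psmb9, Gbp3 and Irgm2 among them, were tested in 15 of 16 alternatives. Genes of the H2-Q and Gbp families are near-copies that can share reads, Tap1 and Psmb9 overlap at their starts on opposite strands, and Igtp and Irgm2 overlap on the same strand.

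Promoter windows of 300 bases (250 before to 50 after the annotated start, RefSeq, GRCm38.p6, the build mm10) are shown for 4 of these genes, because the letters bound by interferon regulatory factors (IRF) could be looked for in them. In each, capitals mark every stretch that matched one of the letter sets named below, read on both strands.
Gbp2, chr3:142620413-142620712, plus strand: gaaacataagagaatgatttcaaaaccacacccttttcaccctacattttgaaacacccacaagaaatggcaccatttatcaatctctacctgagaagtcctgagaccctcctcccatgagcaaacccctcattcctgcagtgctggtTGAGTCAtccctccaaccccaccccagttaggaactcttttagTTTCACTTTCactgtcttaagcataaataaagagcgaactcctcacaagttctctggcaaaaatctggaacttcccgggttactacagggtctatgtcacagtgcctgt
Igtp, chr11:58199306-58199605, plus strand: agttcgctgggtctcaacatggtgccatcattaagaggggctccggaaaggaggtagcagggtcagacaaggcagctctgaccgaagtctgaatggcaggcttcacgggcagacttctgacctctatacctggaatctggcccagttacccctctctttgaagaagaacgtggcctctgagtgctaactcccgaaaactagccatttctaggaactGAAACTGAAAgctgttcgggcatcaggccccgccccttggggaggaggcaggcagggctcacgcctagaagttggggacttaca
Bst2, chr8:71537423-71537722, minus strand: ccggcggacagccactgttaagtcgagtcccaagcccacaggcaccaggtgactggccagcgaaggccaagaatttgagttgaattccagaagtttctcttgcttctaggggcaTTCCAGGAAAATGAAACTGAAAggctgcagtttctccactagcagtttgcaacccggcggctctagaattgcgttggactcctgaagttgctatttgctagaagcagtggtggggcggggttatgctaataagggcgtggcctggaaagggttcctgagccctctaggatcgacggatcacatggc
Tap1, chr17:34187306-34187605, plus strand: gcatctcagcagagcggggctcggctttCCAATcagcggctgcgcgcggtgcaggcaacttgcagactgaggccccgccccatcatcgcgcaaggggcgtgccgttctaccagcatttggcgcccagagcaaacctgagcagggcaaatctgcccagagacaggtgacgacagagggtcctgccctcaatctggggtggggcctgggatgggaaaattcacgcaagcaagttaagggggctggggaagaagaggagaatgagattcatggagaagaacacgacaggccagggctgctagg

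The IRF letters (GAAA, any 2 bases and GAAA), chosen after the values were seen, stand once in the Gbp2 window (59 bases before the start, on the minus strand) and once in the Igtp window (34 bases before it). Bst2 holds them at 2 overlapping positions, joined to the STAT letters TTCCNGGAA. The Tap1 window, which largely covers that of Psmb9, holds only the NF-Y letters CCAAT, and Gbp2 also holds the AP-1 letters TGANTCA. RefSeq windows matched 396 of the 575 higher genes, 202 of the 297 lower ones and 9955 of all genes tested. The IRF letters stood in 29 of the higher (7.32%), 5 of the lower (2.48%) and 282 of all windows (2.83%). Within the interferon and class I families 13 of 28 windows of genes called higher held them, and 10 of 24 windows of genes not called. Of the other letter sets, the OTX letters TAATCC stood in 8.33% of the higher, 6.44% of the lower and 5.47% of all windows, and the CCAAT letters in 36.1%, 29.7% and 39.2%. Shares of the STAT letters were 1.01%, 1.49% and 1.21%, and those of the ESRRB letters TCAAGGTCA were 0%, 0% and 0.261%. A match of letters describes the window and is not a bound site.

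The largest rises also took in genes of no listed pathway. Slc40a1, the iron exporter ferroportin, was at 2.67, 0, 0.576 and 1.46 RPM on day 3 and at 88.7, 40.1, 83.3 and 30.8 RPM on day 4 (5.80 ± 0.44, adjusted p = 1.11e-10), with more in the double cultures. Car4, a membrane-anchored carbonic anhydrase, was at 3.33, 9.43, 2.30 and 8.29 RPM and then at 132, 149, 105 and 146 RPM (4.74 ± 0.38, adjusted p = 4.48e-10). Cthrc1, a secreted collagen triple helix protein, went from 2.03 ± 1.36 to 42.8 ± 5.67 RPM, Syt13, a synaptotagmin, from 0.872 ± 1.07 to 20.9 ± 4.13 RPM and Pcdh1, a protocadherin, from 4.32 ± 3.92 to 66.1 ± 24.6 RPM. Sema6a, a membrane semaphorin, was at 0, 13.7, 2.30 and 8.29 RPM and then at 35.6, 163, 36.6 and 89.1 RPM, higher in the single cultures on both days (4.22 ± 0.61, adjusted p = 1.69e-05). Tmem54, Spnb1 (the erythroid beta-spectrin gene, also Sptb), Bnipl and Tmem154 were the others of the 15.

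The 10 called genes with the highest mean RPM, a scale that is not per length, were of several kinds. Pim2, a serine/threonine kinase gene on the X chromosome, went from 88.7, 211, 69.1 and 173 RPM to 686, 776, 656 and 710 RPM (2.53 ± 0.37, adjusted p = 1.59e-05), and the cultures were closer to each other on day 4 than on day 3. Snrpn, an imprinted gene of the small nuclear ribonucleoprotein family, went from 185, 212, 159 and 199 RPM to 444, 481, 475 and 507 RPM (1.34 ± 0.19, adjusted p = 1.05e-05), with Snurf annotated on the same strand. Slc2a3, the glucose transporter GLUT3, fell from 2240, 1250, 2280 and 1270 RPM to 911, 630, 1050 and 755 RPM (-1.04 ± 0.29, adjusted p = 0.0196). That call was lost without any 1 of the 4 cultures (adjusted p = 0.0477 at -0.95 without X14 double, and 0.056, 0.104 and 0.0705 without the others). Emb, the adhesion protein embigin, rose (1.15, and 1.07 without X18 double, adjusted p = 0.0722), and Rlim, Spp1, Nanog, Gja1, Dnmt3a and Dnmt3b are given with their groups.

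In lists of metabolism, chromatin remodelling, the lysosome and stress the share called was 0% to 6.25%, beside the 5.97% of all genes. No gene was called among 16 of cholesterol synthesis, 14 of one-carbon and serine metabolism, 18 of the BAF complex or 11 of heat shock and stress, with medians of 0.26, -0.04, -0.05 and -0.04, although 15 of the 16 cholesterol genes had a positive difference, and Fdps (0.94, adjusted p = 0.0226) and Mvd (0.73, 0.0362) passed the p threshold below the minimum size. Slc2a3 was the only one of 18 in glycolysis (5.56%). Laptm4b was the only one of 16 in the lysosome (6.25%), at 1.09, and lost the call without the block (adjusted p = 0.0649) and without X14 single, X18 double or X18 single (0.0533, 0.142 and 0.0547). In cell cycle control Ccnd2, cyclin D2, rose from 9.85 ± 2.41 to 35.9 ± 7.0 RPM (1.88, lost without any 1 culture, adjusted p from 0.0607 to 0.109) and Cdkn1b, the inhibitor p27, from 20.4 ± 5.79 to 45.8 ± 6.0 RPM (1.21, adjusted p = 0.00134). Bcl2l11, the pro-apoptotic BIM, rose by 1.37 ± 0.25 (adjusted p = 0.000409), alone among 13 BCL2 family and p53 target genes. Of 16 genes of the actin cytoskeleton Cnn1, calponin 1, rose from 1.43 ± 1.69 to 16.7 ± 11.5 RPM (3.41 ± 0.46, adjusted p = 6.43e-06) and Tpm2 from 11.7 ± 9.33 to 37.7 ± 12.4 RPM (2.10, adjusted p = 0.0171, lost in some alternatives). Shares called were 18.2% in the cell cycle list, 7.69% in the BCL2 and p53 list and 12.5% in the actin list, beside 5.97% of all genes. Of 14 imprinted genes 3 rose and 1 fell (28.6%). H19, an imprinted noncoding RNA, was at 17.3, 30.6, 31.7 and 46.8 RPM and then at 233, 125, 237 and 126 RPM (2.52 ± 0.56, adjusted p = 0.00318). Of 15 germline genes Sycp3, of the synaptonemal complex, rose (2.15), while Dazl (-1.90) and Stra8 (-2.38) fell, both calls being lost in some alternatives. The called genes were 20% of the germline list.

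X-linked genes made up 5.91% of the genes called higher (34) and 3.03% of those called lower (9), beside 3.89% of all tested (569). The median log2 difference of X-linked genes from day 3 to day 4 was -0.02, 0.29, 0.04 and 0.20 in the 4 cultures, and that of 14042 autosomal genes 0.01, 0.08, -0.03 and 0.06, so the single cultures had the higher X-linked medians. This difference was not tested. Of 19 regulators of X chromosome inactivation Rlim, the X-linked ubiquitin ligase that activates Xist, rose from 215, 337, 234 and 232 RPM to 637, 470, 658 and 434 RPM (1.11 ± 0.28, adjusted p = 0.0093). Its call was lost without the block (0.0554), without X18 double (0.114), and without X14 double, where the log2 difference was 0.96. Eed, a core subunit of the polycomb complex PRC2, fell from 271, 271, 263 and 290 RPM to 116, 119, 163 and 152 RPM (-1.01 ± 0.17, adjusted p = 9.79e-05), at the edge of the minimum size. Xist, the noncoding RNA that coats the inactive X, was at 26.7, 2.83, 19.6 and 3.90 RPM on day 3 and 59.8, 9.06, 34.4 and 4.48 RPM on day 4, higher in the double cultures on both days (0.96 ± 0.63, adjusted p = 0.5). It overlaps Tsix on the other strand. Rlim and Eed were the only regulators called, 10.5% of the list beside 5.97% of all genes.

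To ask which genes began to move at this step, it was compared with the step from day 2 to day 3. The difference between the steps was called for 63 genes (0.431%), 45 upward and 18 downward. Both steps share the day 3 libraries. Fgf5 had the smallest adjusted p (difference 6.20, adjusted p = 0.000128), followed by Syt13 (4.70, 0.000215), Oasl2 (5.69, 0.000215), Slc40a1 (5.24, 0.000273) and Socs3 (-3.63, 0.000999). Klf4 (-4.81, 0.00883), Jam2 (-3.99, 0.0242), Spp1 (-2.01, 0.00494), Krt18 (4.52, 0.00239), Gbp2 (4.88, 0.00494) and Sall2 (3.26, 0.0366) passed as well. Klf4 was at 188 ± 24.7 RPM on day 2 and 129 ± 17.4 RPM on day 3, and Socs3 at 168 and 175 RPM, before they fell.

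For some genes the step before had been called too, with log2 differences of 3.75 for Otx2 (adjusted p = 1.43e-05), 2.14 for Pou3f1 (0.0133) and 1.46 for Dnmt3b (0.0317). For Nanog (-0.80, 0.819) and Tbx3 (-1.62, 0.371) it had not. Nanog had means of 2070 ± 702, 1370 ± 451 and 868 ± 498 RPM on days 1, 2 and 3, and the difference of its steps was not called (-2.13, adjusted p = 0.308). Otx2 was at 7.70 ± 4.41 RPM on day 2 and 92.9 ± 17.7 RPM on day 3, and its difference of steps was -2.19 (adjusted p = 0.288). Those of Pou3f1 (1.13, 0.814), Dnmt3b (-0.03, 1) and Tbx3 (-3.60, 0.0955) were not called either. The count of 63 was 4 without X14 single, 4 without X18 double and 9 without X18 single.

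**Figure D4:**
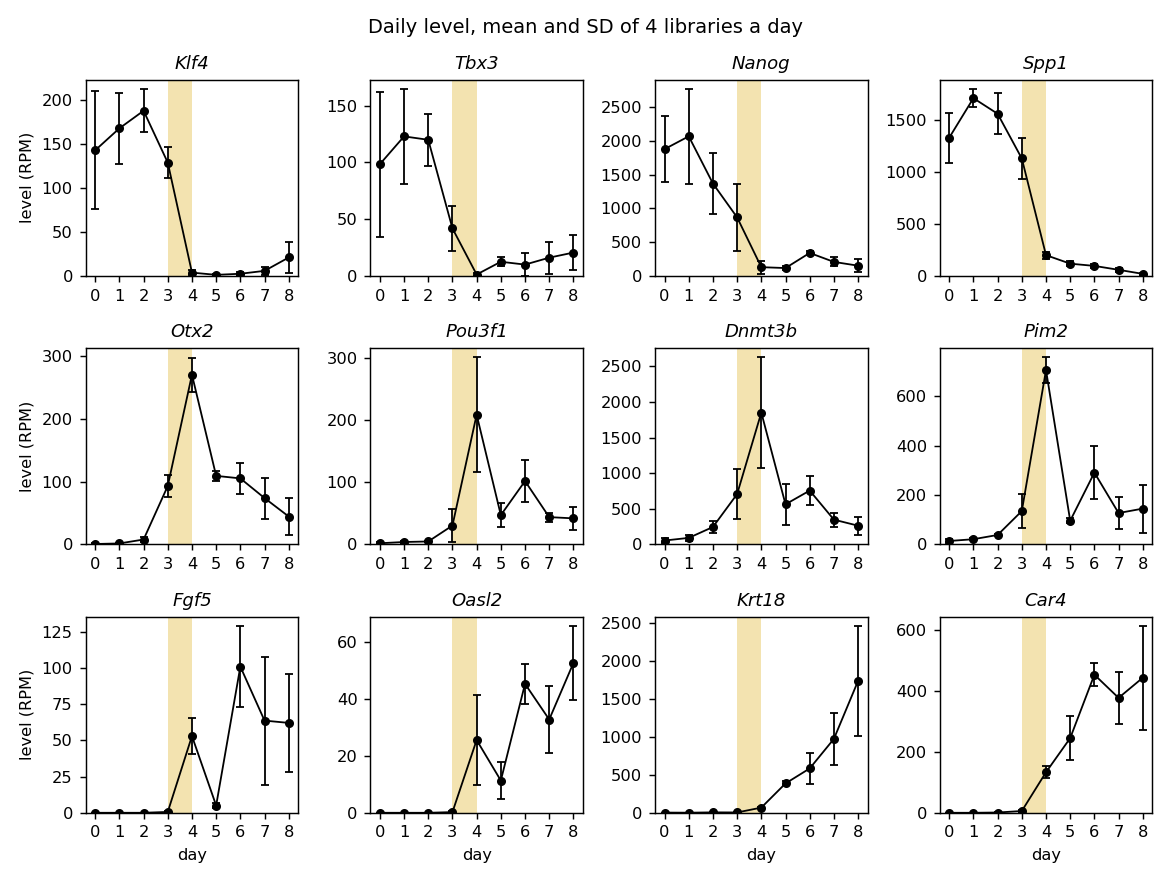
Mean level (RPM, each panel with its own axis from 0) of 12 genes on days 0 to 8, with the SD of the 4 libraries of a day as bars and the step from day 3 to day 4 shaded. Otx2, Pou3f1, Dnmt3b and Pim2 peak on day 4, Fgf5 dips to 5.02 RPM on day 5 between 53 and 101 RPM, Krt18 is higher on each later day, and Car4 is highest on day 6 at 453 RPM.

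The step from day 4 to day 5 was compared in the same way, and the difference between the steps was called for 512 genes (3.5%), 330 upward and 182 downward. Both steps share the day 4 libraries. Fgf5 gave the smallest adjusted p (difference 9.72, adjusted p = 2.79e-09), and its mean of 53 ± 12.2 RPM was followed by 5.02 ± 1.77 RPM a day later and 101 ± 28.1 RPM after that. Pim2 was at 707 ± 51.1 RPM on day 4 and 95.8 ± 10.8 RPM on day 5 (difference 5.42, adjusted p = 4.36e-06). Pou3f1 went from 209 ± 92.1 RPM to a mean of 47.1 RPM (5.42, 3.1e-05) and Fgf15 from 32.9 to 3.08 RPM (6.55, 5.07e-05). Dnmt3a (3.39, 0.000983), Dnmt3b (3.26, 0.000709), Otx2 (2.86, 0.0333), Irf1 (3.43, 0.0011), Egr1 (6.29, 0.000586) and Snrpn (2.25, 6.28e-05) passed too. Tbx3 was called in the other direction (-8.78, 1.8e-06), at 1.25 ± 0.987 RPM on day 4 and 12.5 ± 3.89 RPM on day 5. Slc40a1 (6.39, 4.36e-06), Oasl2 (6.43, 8.41e-06) and Arl4d, an ARF-like GTPase (4.64, 8.41e-06), also had among the smallest adjusted p-values.

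Of the 33 epithelial genes tested, 9 were called higher and 2 lower in the step to day 5, beside 801 and 942 of all 14612 genes. Krt18 was at 387 RPM on day 5 and Krt8 at 68.3 RPM, both above day 4, and the differences of their steps were not called (1.67, adjusted p = 0.26, and 0.59, 0.858). Cldn7 stood at 125 RPM on day 5 (0.51, 0.859) while Grhl2 went from 67.2 ± 16.5 to 34.8 ± 13.6 RPM. H19 stood at 413 RPM on day 5 (1.36, 0.547). Of the 575 genes called higher in the step, 139 had their highest day mean on day 4, and 122, 103, 75 and 135 had it on the 4 days that followed. Of the 297 called lower, 86 had their lowest day mean on day 4 and 101 on day 5, and 22 their highest on day 8. These counts used the values that chose the genes and are given with no test.

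The step was then compared between the labels and between the lines. With limma no gene was called for double against single (567 at an unadjusted p under 0.05, smallest adjusted p 0.266) or for X14 against X18 (193 at an unadjusted p under 0.05, smallest adjusted p 1). At 2 cultures a side, this does not show that the steps were alike. Lgals3, the lectin galectin-3, was at 12.7, 9.90, 8.64 and 3.90 RPM on day 3 and at 14.8, 0.647, 22 and 0.561 RPM on day 4, so it stayed in the double cultures and was nearly lost from the single ones (difference of the steps 4.15, unadjusted p = 8e-05, limma, adjusted p = 0.266). Tfap2c, a transcription factor of trophoblast and naive cells, went from 139, 37.7, 122 and 43.4 RPM to 36.3, 3.88, 30.4 and 2.24 RPM (step -2.87, difference 1.81, limma, adjusted p = 0.266). The difference of the steps in Irf1 was 1.28 (limma, unadjusted p = 0.00222). None of these passed the adjustment.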

How the data were processed

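RNA of 36 libraries (4 cultures on each of 9 days) was sequenced as 75-base single-end reads, which the authors trimmed and aligned to mm10 (TopHat2 2.0.12 per the submitters' processing notes) and counted in SeqMonk. The authors deposited log2 values per gene. Undoing the length and depth gave whole reads for 100% of values, at a tolerance of 0.01 that was looser for abundant genes. The exon length was fitted for each gene, and 51.6% of the genes matched to a reference annotation had its length. The values were therefore taken as log2 RPKM in which a gene without reads is written as 0.9 read. Whether strand was used in counting is not given in the sources used here.

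The deposited log2 values were fitted with limma 3.58.1 (trend, R 4.3.3), with day and culture as terms over all 36 libraries and 24 residual degrees of freedom. Genes with at least 1 RPM in at least 4 libraries were kept (14612 of 25965). Contrasts were day 4 minus day 3, that step minus the steps before and after it, and the step between labels and between lines. Calls needed a two-sided Benjamini-Hochberg adjusted p under 0.05 and an absolute log2 difference of at least 1. Same-numbered libraries share line and label, and their deviations on days 3 and 4 correlated (r = 0.47, 0.57, 0.50 and 0.49 over 9000 genes), so the number was kept as a block and is called a culture here. Libraries of the same label and the other line correlated at 0.35 to 0.50, and those of the other label at -0.52 to -0.40, so these values follow the label and do not show that a number is 1 culture. A change against 0 reads is a bound from 3 reads per library, and one against 1 to 3 reads has an exact 95% counting interval.

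Named genes were the 15 largest rises and 15 largest falls with at least 10 RPM and 1 sign in all 4 cultures, listed genes, up to 5 genes with the smallest adjusted p in each difference test, and the 10 called genes with the highest mean RPM. The comparison and the gene lists were chosen with earlier results of these data known, and the epithelial, connexin, class I and interferon families and the IRF letters after the values of this step were seen. On simulated data for the step, run on 14612 genes, 10%, 82%, 100% and 100% of genes changed by a log2 of 1, 2, 3 and 4 were called, with 8 false calls among 14412. The changed genes were drawn only from those with a mean of at least 10 RPM, so these shares do not cover genes of lower level. The simulated data had the same spread setting for every gene and no differences between cultures. Alternatives left out each culture or day 0, dropped the block, used the 8 libraries alone, other normalizations, filters and offsets, voom, or thinned reads. Some genes of the lists are not reported here.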

Additional observations from a re-analysis of the deposited data

Results flagged for a closer look

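In 6 of 274 groups of 4 libraries looked at, the highest library stood apart from the others beyond Dixon's 95% critical value. Chance flags about 1 in 20 groups, which would be 13.7. On day 3, X14 single had 10.8 RPM of Parp14, against 2.0 to 3.41 RPM in the others, and 337.0 RPM of Rlim, against 215 to 234 RPM. On day 4, X14 double had 4.03 RPM of Samd9l and 3.36 RPM of Serpinb6c, each against 0 to 0.563 RPM in the others, and 12.1 RPM of Tapbpl, against 2.25 to 3.36 RPM. X18 double had 27.0 RPM of Socs3 on day 4, against 10.4 to 12.8 RPM.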

How the results depend on the processing

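Of 151 called genes that were named or listed, 86 kept the call in every alternative run that tested them, and none changed sign under any. Only 106 of the 151 were tested under the filter on a mean of 10 RPM, and 143 under a filter on the 8 libraries. The count of 872 genes was 735 without the culture as a replicate block. It was 398 when genes under a mean of 10 RPM were dropped (9000 tested). With 1 culture left out it was 480 to 772. It was higher without day 0 (1014) and in the 8 libraries alone with the block (1087). The difference from the step before, 63 genes, became 123 without day 0, 24 with that stricter filter and 4 to 49 with 1 culture left out. The difference from the step after, 512 genes, became 747 without day 0, 333 without the replicate block and 170 to 434 with 1 culture left out. The difference between labels went from 0 to 2 genes without day 0. The share of higher genes among those called was 65.9%, and 56.5% after quantile normalization. The median of the Nodal pathway genes, 0.17, became -0.07 under the stricter filter and -0.08 with reads thinned. The filter on means leaves fewer genes to test and leaving out a culture leaves fewer samples, while the cause of the other changes was not tested. In the simulated data most differences of a log2 of 1 were not called. No gene under a mean of 10 RPM was among the changed ones, so the recovery of such genes is not known. Unchanged genes of low level were not looked at apart.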
